A study of Mus musculus with 6 samples.

Results

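The 8 genes described here are Ets1 and its nearest relatives in the ETS family of transcription factors: Ets1, Ets2, Fli1, Erg, Elf1, Elf2, Elf4 and Gabpa. They were chosen by name, as the targeted gene and the family members that could act in its place. A gene was measured by the probe sets that name it alone, and each of the 8 had 1 such probe set, among 22180 genes and 41345 probe sets in all. RNA was hybridised to 6 single-channel Affymetrix arrays, 3 from Ets1-/- mice and 3 from wild-type mice. All mice were C57BL/6 and 5 to 6 weeks old, and all samples were thymocytes that were crosslinked with formaldehyde and then taken in turn with magnetic beads against CD8 and CD4. The labels name the allele only as Ets1-/-, with no cell type restriction, and describe cohorts of litter mates as the biological replicates. The labels do not say whether an array held 1 animal or a pool, and p-values reflect only how these 6 samples varied.

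ETS factors share a DNA-binding domain that recognises a GGAA core, and each lymphocyte contains several of them at once. Ets1 is made throughout T-cell development and binds enhancers together with RUNX factors. Ets2 is its closest relative, while Fli1 and Erg form another pair and Elf1, Elf2 and Elf4 a further subgroup. Gabpa is the DNA-binding subunit of the GABP complex, which also contains a Gabpb subunit. Because their sites overlap, a relative could in principle occupy sites left free where Ets1 is missing, and the comparison asks what happened to the RNA of each.

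The samples are labelled as double-positive thymocytes, the immature T cells with both coreceptors. Cd4, Cd8a and Cd8b1 had mean log2 signals between 10.91 and 11.69 in both groups. Their log2 fold changes were 0.13, -0.09 and -0.03, and the signs of the last pair turned once arrays were centred on their medians. Other genes of the double-positive list did move: Tdrd5 and Plxnd1 fell by 2.55 and 2.78, and Ptcra rose by 1.50. The marker lists were chosen with earlier results of these data known, so changes and counts within them are no independent support. Most macrophage markers and part of the B-cell, dendritic-cell and mature T-cell markers also rose in Ets1-/-. Their values are given beside the results they accompany and at the end. Array medians were 3.66 to 4.31 in Ets1-/- and 4.21 to 4.33 in wild type, the lowest being Ets1-/- replicate 1. Over all genes the median change was -0.22 on the log2 scale, and -0.01 after centring. All values below are deposited log2 signals, and all changes are Ets1-/- minus wild type on that scale.

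Ets2 was the only member of the 8 that passed the limma test. Its signal in Ets1-/- was 27.2% of that in wild type, while the targeted gene itself and the other 6 were not called. Fli1 and Erg were above 0 and the remaining 5 below it. Over all genes the test called 1.86% (adjusted p under 0.05), 0.568% as lower, against 1 of these 8, which was lower. The median change of the 8 was -0.18, where that of all genes was -0.22.

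**Figure D1:**
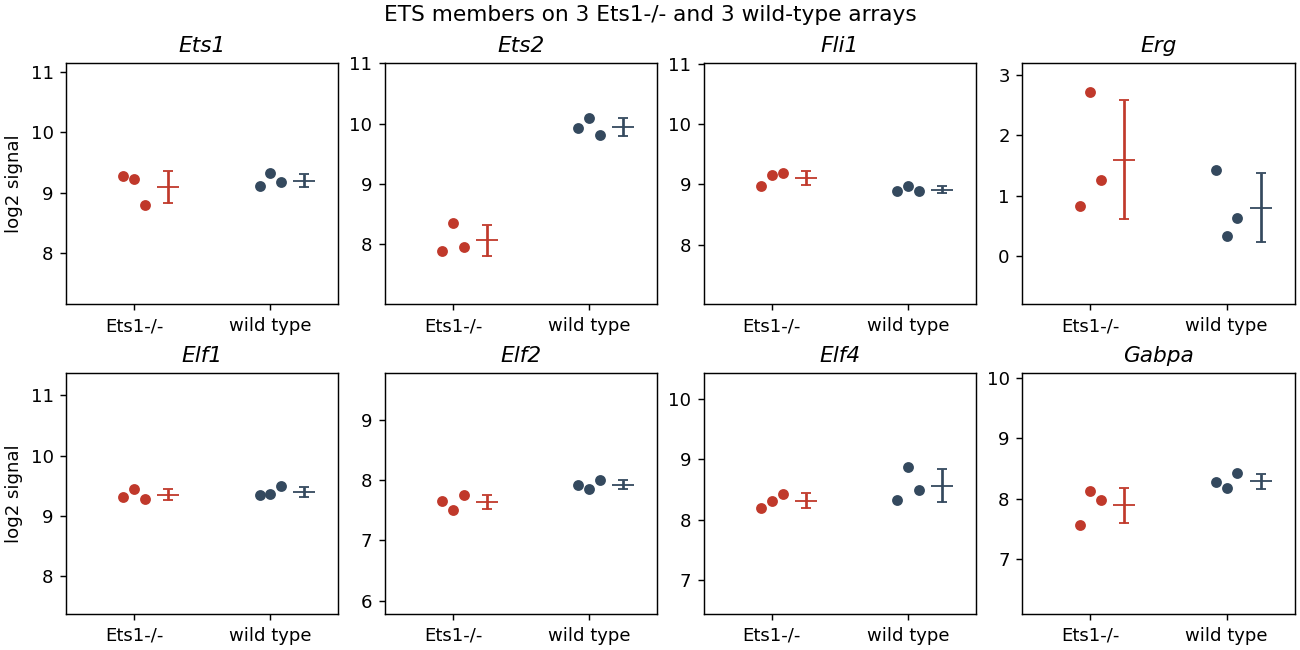
Log2 signal of the 8 ETS genes on each array (points), with the mean and SD of 3 arrays beside them, Ets1-/- in red and wild type in dark blue. Every panel spans the same number of log2 units, centred on the gene's own mean, so panels compare changes and not levels; the 3 Ets1-/- values of Ets2 (7.89 to 8.36) lie below its 3 wild-type values (9.81 to 10.10).

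Ets1, the targeted gene, was read by probe set 17515819. Its signal was 9.27, 9.22 and 8.79 on the Ets1-/- arrays and 9.11, 9.32 and 9.17 on the wild-type arrays. The groups overlapped, and Ets1-/- replicate 3 was the lowest of the 6. The mean was 9.09 ± 0.27 in Ets1-/- and 9.20 ± 0.11 in wild type (SD, n = 3 each). The Ets1-/- signal was therefore 0.931 times the wild-type signal, with a 95% interval of 0.638 to 1.36 times. The limma adjusted p was 0.860. The sign of the change was not fixed by the data: it was -0.10 on the deposited values, 0.11 after median centring and 0.05 without Ets1-/- replicate 3. No source at hand places the probes relative to the deleted part. The Ets1 signal is therefore no test of the genotype labels, and every direction below refers to the arrays labelled Ets1-/-. A further probe set names Ets1 together with Taok1, so its signal cannot be assigned to either gene, and it was left out of the fit. It had 8.11, 8.16 and 8.10 in Ets1-/- and 8.33, 8.46 and 8.43 in wild type, groups that did not overlap, with a difference of -0.29.

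Ets2, a factor downstream of Ras and MAP kinase signals, was read by probe set 17327465. It had 7.89, 8.36 and 7.95 in Ets1-/- and 9.93, 10.10 and 9.81 in wild type. The highest Ets1-/- array was still below the lowest wild-type array. This is a log2 fold change of -1.88 ± 0.24 (SE; limma adjusted p = 0.00811), with a 95% interval of -2.43 to -1.33. It was lower in 3 of 3 Ets1-/- arrays, and an exact two-sided permutation test gave p = 0.1, the smallest that 3 arrays against 3 allow. Each of the 17 other ways of processing the values kept the call, with changes between -2.03 and -1.67 and an adjusted p of at most 0.0441. Not all of these are separate checks. Ets2 has 1 probe set, so other probe set rules reused its values and left the change at -1.88. In RNA from a cell population, fewer cells that express a gene and less RNA per cell cannot be told apart, and this holds for every change given here.

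The upstream sequence of Ets2 is shown because it is the member that changed, with that of Gabpa beside it as a promoter that holds several ETS cores. Both are the 250 bases before the annotated start, 5′ to 3′ on the gene's strand, from RefSeq on GRCm38.p6, and capitals mark the ETS core GGAA or its reverse complement TTCC.
Ets2, chr16:95702157-95702406, plus strand: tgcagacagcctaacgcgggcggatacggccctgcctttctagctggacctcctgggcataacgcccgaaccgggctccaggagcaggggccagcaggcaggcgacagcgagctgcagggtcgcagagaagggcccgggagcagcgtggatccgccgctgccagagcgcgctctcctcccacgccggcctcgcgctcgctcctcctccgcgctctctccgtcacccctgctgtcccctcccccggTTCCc
Gabpa, chr16:84834874-84835123, plus strand: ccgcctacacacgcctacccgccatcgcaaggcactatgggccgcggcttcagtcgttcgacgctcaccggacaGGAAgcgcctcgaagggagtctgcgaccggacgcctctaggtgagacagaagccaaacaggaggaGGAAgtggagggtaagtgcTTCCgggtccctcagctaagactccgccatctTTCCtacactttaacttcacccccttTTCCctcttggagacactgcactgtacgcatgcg
Ets2 had 1 core in this window, and 93.4% of the 32851 promoters in the table hold at least 1 on either strand. Gabpa had 5, a number reached by 18.0% of promoters. It was not the richest in cores: a window of Elf2 and a window of Elf4 held 6 each, reached by 8.69%. The longer form CCGGAAG (or CTTCCGG) was found in the window of Gabpa and in no other of the 11 windows listed for 6 of the members, and in 6.91% of all promoters. It contains the shorter core, so its match is also one of the 5. A match of letters describes the window and does not show that a factor binds there. Ets1 and Fli1 were not in the promoter table.

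Fli1, the gene next to Ets1 on chromosome 9 and a factor of haematopoietic and endothelial cells, was read by probe set 17525310. It had 8.98, 9.15 and 9.19 in Ets1-/- and 8.88, 8.97 and 8.88 in wild type. The groups just failed to overlap, the lowest Ets1-/- array and the highest wild-type array being nearly level. The log2 fold change was 0.19 ± 0.21 (SE), the signal in Ets1-/- being 1.14 times that in wild type (95% interval 0.818 to 1.60). The limma adjusted p was 0.704. Relative to the median of all genes its change was 0.41.

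Erg, the partner of Fli1 in sequence and the gene next to Ets2 on chromosome 16, was near the bottom of the scale. It is known for blood stem cells, endothelium and early T-cell progenitors, and is silenced as thymocytes mature. Probe set 17332358 gave 0.82, 2.71 and 1.26 in Ets1-/- and 1.43, 0.32 and 0.63 in wild type. The groups overlapped, and Ets1-/- replicate 2 stood above the other 5 arrays. The log2 fold change of 0.80 ± 0.51 (SE; 95% interval -0.39 to 1.99; adjusted p = 0.557) became 0.13 once 16 was added to each linear signal as a pseudocount, and 0.25 without Ets1-/- replicate 2. Erg was the only member below the median signal of all genes, so its ratio rests on dim signals.

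The 3 Elf genes did not pass the test. Elf1, which binds many T-cell promoters (probe set 17302238), had 9.31, 9.45 and 9.29 in Ets1-/- and 9.35, 9.36 and 9.49 in wild type. The groups overlapped, and the change of -0.05 (adjusted p = 0.924) turned to 0.16 after median centring. Elf2 (probe set 17405099) had 7.65, 7.51 and 7.75 in Ets1-/- and 7.92, 7.84 and 8.0 in wild type. Every Ets1-/- value lay below every wild-type value, but the change of -0.29 ± 0.21 (SE) had an adjusted p of 0.596. Elf4, a brake on T-cell proliferation (probe set 17541404), had 8.18, 8.31 and 8.43 in Ets1-/- and 8.32, 8.87 and 8.50 in wild type. The groups overlapped, and the change was -0.25 ± 0.24 (SE; adjusted p = 0.665). Relative to the median of all genes, Elf2 and Elf4 were at -0.07 and -0.03.

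Gabpa (probe set 17326816) had 7.57, 8.12 and 7.97 in Ets1-/- and 8.27, 8.17 and 8.42 in wild type. The groups did not overlap, although the highest Ets1-/- array nearly reached the lowest wild-type array. The change of -0.40 ± 0.24 (SE; adjusted p = 0.533) had a 95% interval of -0.96 to 0.15, and it was -0.24 without Ets1-/- replicate 1 and -0.19 after median centring. The Gabpb subunits, which bring the activation domain, were read as partners, and Gabpb1 had a change of -0.57 ± 0.30 (SE; adjusted p = 0.489).

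The groups did not overlap for 4 of the 8 genes, 1 higher (Fli1) and 3 lower (Ets2, Elf2 and Gabpa). Over all genes this held for 21.9%, of which 5.76% higher and 16.1% lower. For Fli1, Elf2 and Gabpa the gap between groups was small beside the fitted error. A rise in a relative is bounded by the intervals: among the 6 members other than Ets2 and Erg, the upper 95% limit of the ratio of Ets1-/- to wild type was highest for Fli1, at 1.60. It was 1.36 for Ets1, 1.35 for Elf1, 1.23 for Elf4, 1.15 for Elf2 and 1.11 for Gabpa. For Erg it was 3.98. These limits hold for the deposited scaling only. After median centring the log2 fold change of Fli1 was 0.40 and not 0.19, and those of the other members also lay higher.

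**Figure D2:**
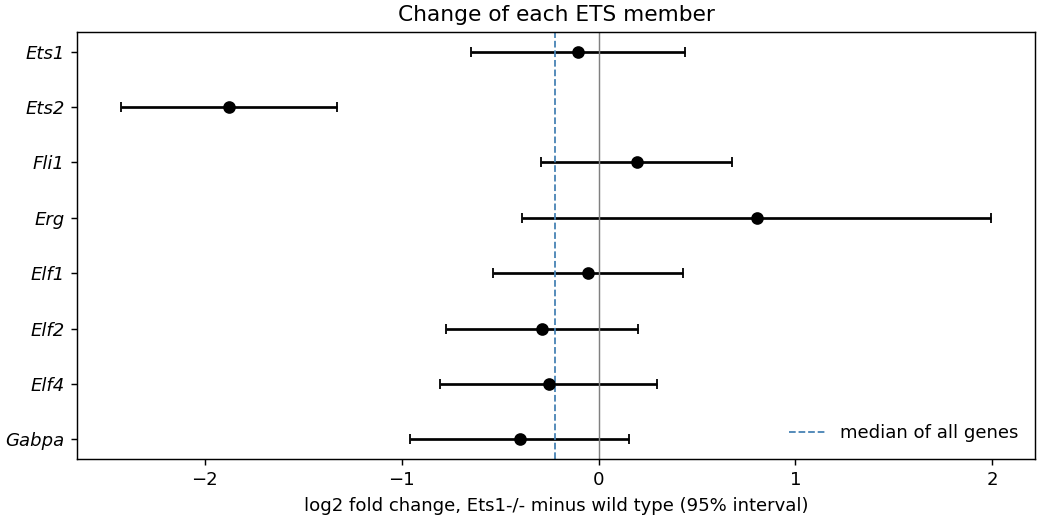
Log2 fold change of each ETS gene, Ets1-/- minus wild type, with its 95% limma interval; the dashed line is the median of all genes at -0.22. Only the interval of Ets2, -2.43 to -1.33, lies wholly away from 0.

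The difference between Ets2 and another member on the same array cancels a constant added to the whole array, but not scaling that depends on intensity. Since the other members changed little, these differences restate the Ets2 values and are no independent support. The level of such a difference depends on the probes, so only its shift between groups is read. Ets2 minus Ets1 was -1.39, -0.86 and -0.84 in Ets1-/- and 0.82, 0.78 and 0.64 in wild type, a shift of -1.77. Against the other 6 members the shift was between -2.68 (Erg) and -1.48 (Gabpa). For all 7 members every Ets1-/- array lay below every wild-type array. Each exact two-sided permutation test gave p = 0.1, the smallest possible, and 0.1 after Benjamini-Hochberg adjustment over the 7 differences, so none could pass 0.05 in this design.

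**Figure D3:**
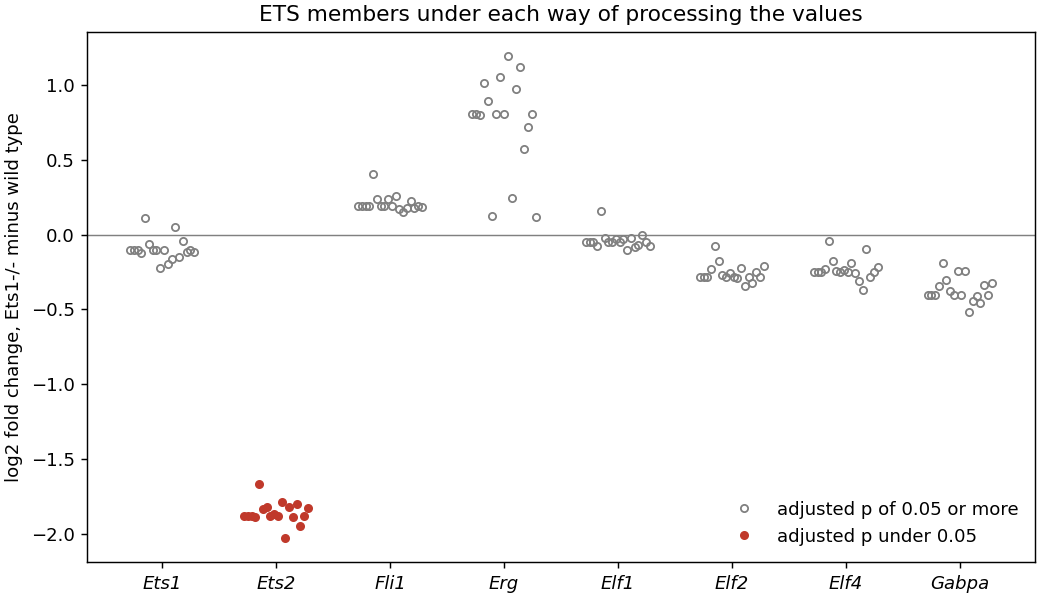
Log2 fold change of each ETS gene, Ets1-/- minus wild type, on the deposited values and under up to 17 other ways of processing them (each point 1 fit). Ets2 stays between -2.03 and -1.67 and is called in each fit (filled points), while the other 7 genes are called in none.

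Among the other ETS genes Spi1 rose and Elk3 fell. Of 18 listed, 17 were measured, so that 1 rose and 1 fell, against 1.29% and 0.568% of all genes. Spi1, which encodes the myeloid and B-cell factor PU.1 and is shut off when cells commit to the T lineage, had 5.96, 6.04 and 6.85 in Ets1-/- and 2.66, 3.92 and 2.77 in wild type. It rose by 3.17 ± 0.41 (SE; adjusted p = 0.00889), by 1.91 with a pseudocount of 16, and was called in each of 17 alternatives. Spib, a relative of PU.1 in B cells and plasmacytoid dendritic cells, had a change of 3.33 ± 0.67 (SE; adjusted p = 0.0578), or 1.71 with the pseudocount, and was called in 7 of 16 alternatives. Spic, the factor of red-pulp macrophages, had a change of 1.57 ± 0.35 (SE; adjusted p = 0.0827) and was called in 6 of 17. Groups did not overlap for either.

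Elk3, a ternary complex factor that can repress serum response genes, was the ETS gene besides Ets2 that fell. It had 5.87, 6.25 and 6.64 in Ets1-/- and 7.47, 7.95 and 7.74 in wild type, with no overlap. The log2 fold change was -1.46 ± 0.28 (SE; adjusted p = 0.0472). The call ended without any 1 of the 6 arrays, with an adjusted p up to 0.172, and held in 9 of 11 other alternatives. Etv5, a target and effector of growth factor signals, had 6.97, 7.52 and 8.24 in Ets1-/- and 4.75, 6.62 and 5.73 in wild type, a change of 1.88 that did not pass (adjusted p = 0.147). The plot of the other ETS genes by array shows that groups were apart for 6 of the 17, where 21.9% of all genes had groups apart.

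**Figure D4:**
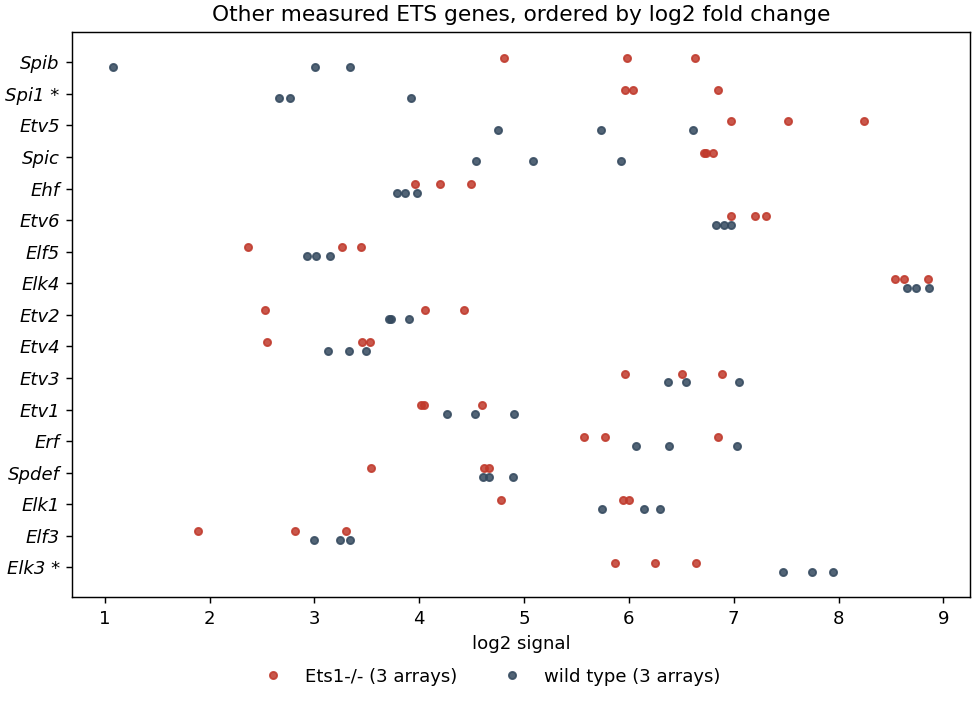
Log2 signal of 17 other ETS genes on 3 Ets1-/- (red) and 3 wild-type (dark blue) arrays, ordered by log2 fold change, with an asterisk where the limma adjusted p is under 0.05. Spi1, just below Spib (5.96 to 6.85 in Ets1-/- and 2.66 to 3.92 in wild type), and Elk3 at the bottom (5.87 to 6.64 in Ets1-/- and 7.47 to 7.95 in wild type) carry the asterisk; levels of different genes are not comparable.

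Markers of the cells that make PU.1 and its relatives moved with the same arrays. Of 12 macrophage and monocyte markers, 11 rose and 0 fell, against 1.29% and 0.568% of all genes. The summed linear signal of these 12 was 3945 to 5365 in Ets1-/- and 741 to 910 in wild type. Csf1r, Ctss, C1qa and Mpeg1 rose by 3.31, 2.78, 2.85 and 3.05. Of 9 measured B-cell markers, 5 rose and 0 fell, beside the same shares of all genes. The sums were 398 to 805 in Ets1-/- and 90.3 to 106 in wild type. Fcrla, Ms4a1, Cd79a, Ebf1 and Blk rose by 3.05, 6.14, 4.20, 2.08 and 2.99. All 5 were dim in wild type, and with the pseudocount their changes were 1.51, 2.39, 2.51, 0.65 and 0.80, Ebf1 and Blk losing their calls (adjusted p = 0.0647 and 0.0852). Ebf1 lost its call in 5 of the 6 fits that left out 1 array, holding it without Ets1-/- replicate 2, and Blk in 4, holding it without Ets1-/- replicate 1 or wild-type replicate 2 (adjusted p up to 0.10 and 0.145).

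Of 10 dendritic-cell markers measured, 5 rose and 0 fell, against 1.29% and 0.568% of all genes. Of the changes that did not pass, 3 were below 0. The sums were 2981 to 3288 in Ets1-/- and 372 to 422 in wild type. H2-Aa, H2-Eb1, H2-Ab1, Irf8 and Itgax rose by 3.48, 4.11, 3.65, 2.51 and 3.67, and leaving out Ets1-/- replicate 1, 2 or 3 ended the call of Itgax (highest adjusted p 0.0639). With the pseudocount the change of Itgax was 2.28. The H2 genes make up most of the sum, with Ets1-/- means of 10.12 (H2-Aa), 9.14 (H2-Eb1) and 10.07 (H2-Ab1). Irf8 and Itgax had means of 7.52 and 6.74 there. Ms4a1, the B-cell antigen CD20, averaged 6.19 in Ets1-/- and 0.04 in wild type, near the bottom of the scale there. Of the dendritic-cell list, Flt3, Zbtb46, Xcr1, Siglech and Batf3 did not pass, and Clec9a and Cd74 had no probe set naming them alone. Whether the 5 that rose come from dendritic cells or from cells of the other lists was not tested. The part of these cells in the changes of Spi1, Spib, Spic and the 8 members was not tested. Ets2 lay lower in Ets1-/- while the summed signals of these lists lay higher, and a relation between them was not tested.

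Endothelial cells and megakaryocytes are the other cells rich in Fli1 and Erg. Of 12 endothelial markers, 0 passed the limma test in either direction, 5 had an unadjusted p under 0.05 (13.2% of all genes did), and all 12 changes were below 0. Their summed signal was 193 to 335 in Ets1-/- and 477 to 650 in wild type, and their median change was -0.60. In wild type 9 of the 12 had means below the median of all genes. The sum therefore follows mainly Pecam1 and Icam2, with wild-type means of 7.68 and 7.80, and does not read endothelial cells alone. Pecam1 and Icam2, adhesion molecules also carried by lymphocytes, had changes of -1.26 and -1.12, Eng one of -1.15 and Plvap one of -0.66. The last pair was dim, at -0.52 and -0.24 with the pseudocount. The adjusted p of these 4 was between 0.10 and 0.326. Pecam1 was called lower in 7 of 17 alternatives, Icam2 in 3 of 17 and Eng in 2 of 16.

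Of 6 measured megakaryocyte and platelet markers, Pf4, a platelet chemokine, rose by 4.48 ± 0.51 (SE; adjusted p = 0.00502), and by 1.86 with a pseudocount of 16. The others did not pass, with Gp6, Gp5 and Ppbp at -0.44, -0.42 and -0.47. The summed signal of the list was 94.3 to 161 in Ets1-/- and 85.5 to 103 in wild type, and 5 of the 6 changes were below 0. The part of such cells in the values of Fli1 and Erg was not tested.

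Proteins that act with ETS factors on DNA were read as a list of partners. Of 18 listed partners 17 were measured, and limma called 0 (1 at an unadjusted p under 0.05), where it called 1.86% of all genes and 13.2% had such an unadjusted p. A count this near those shares says nothing particular of the partners. Their median change was -0.13, against -0.22 for all genes. An intensity trend called 1 of them as lower, quantile normalization with the pseudocount called 2, and the other 15 alternatives called 0. Sp100, a nuclear body protein that binds Ets1, had 8.50, 8.42 and 8.26 in Ets1-/- and 8.84, 8.98 and 8.91 in wild type. Its change of -0.52 ± 0.21 (SE) had an adjusted p of 0.350. Sp1 and Usf1 had changes of -0.50 and 0.47. Of 12 kinases, ligase adaptors and SUMO enzymes that modify ETS proteins, 7 were measured and 0 were called (0 also at an unadjusted p under 0.05). Camk2d, Mylk, Map2k1 and Map2k2 had changes of -0.60, -0.24, -0.23 and 0.11.

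Genes with a described ETS site were read as a list beside the members. Of 15 measured T-lineage genes, 1 rose and 2 fell, against 1.29% and 0.568% of all genes, and 7 had an unadjusted p under 0.05, against 13.2%. The median change was -0.09. Cd5, an inhibitory coreceptor, fell by 1.90 ± 0.25 (SE; adjusted p = 0.00937), and dropping Ets1-/- replicate 2 ended the call at 0.0509. Itgal, the alpha chain of the adhesion receptor LFA-1, had 6.71, 7.36 and 7.34 in Ets1-/- and 8.91, 9.08 and 8.81 in wild type. It fell by 1.80 ± 0.26 (SE; adjusted p = 0.0149), but when single arrays were dropped it kept its call only without Ets1-/- replicate 1 or 3 (highest adjusted p 0.0683).

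Ptcra, the surrogate alpha chain of the pre-T-cell receptor, had 9.00, 9.37 and 9.50 in Ets1-/- and 8.04, 7.81 and 7.54 in wild type. It rose by 1.50 ± 0.25 (SE; adjusted p = 0.0282) and kept its call only without Ets1-/- replicate 1 in such fits (adjusted p up to 0.116). Il7r, the interleukin-7 receptor, which in mouse T cells has a GABP site, had a change of 2.0 ± 0.42 (SE; adjusted p = 0.0663) and was called in 5 of 17 alternatives. Of 12 genes with a described GABP site, all measured, 0 were called and 2 had an unadjusted p under 0.05, counts near the shares over all genes of 1.86% and 13.2%. Their median change was -0.03. Besides Il7r, the smallest p were those of Tyms, Skp2 and Tfb2m, at -0.78, -0.59 and -0.57.

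The genes beside Ets1, Ets2 and Gabpa were taken from RefSeq (GRCm38.p6), 5 measured genes on each side. The shares over all genes to set beside them are 1.86% called and 13.2% at an unadjusted p under 0.05. Around Ets1, of 10 genes 0 were called (1 at an unadjusted p under 0.05), the changes running from -1.10 to 0.48. Around Ets2, of 10 genes 0 were called (1 at an unadjusted p under 0.05), with a median of -0.34 and a lowest value of -1.18 for Psmg1, a proteasome assembly chaperone. Around Gabpa, App, which encodes the amyloid precursor protein, rose by 2.37 ± 0.42 (SE; adjusted p = 0.0366), and kept its call only without wild-type replicate 2 when 1 array was left out (adjusted p up to 0.139). App was dim in wild type, with a mean of 2.94, and its change was 1.20 with the pseudocount. Atp5j, the direct neighbour of Gabpa on the other side and a subunit of ATP synthase, had a change of -0.01.

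Over the 6 arrays, the genes most like Ets2 among the 11090 above the median signal were Dapk1, Vps13c, Naa16, Lmbr1l and Fyn, with Pearson r of 0.995 to 0.999. Such values over 6 arrays in 2 groups mainly say that a gene was lower in the same 3 arrays, and they share array and scaling. Dapk1, a death-associated kinase, had 4.88, 5.46 and 5.09 in Ets1-/- and 7.27, 7.40 and 7.11 in wild type, a log2 fold change of -2.12 (adjusted p = 0.00544). Vps13c fell by 1.49, but when single arrays were dropped it kept its call only without Ets1-/- replicate 1 (highest adjusted p 0.0974). Naa16, Lmbr1l and Fyn had changes of -0.74, -0.79 and -0.91 that did not pass. Of these 5 genes, 3 stayed among the first 5 with a pseudocount of 16 and 2 after median centring. For Ets1 the closest were Ctrl, Dlk2, Fam209, Rsrc2 and Foxp3 (r of 0.926 to 0.981), of which 4 stayed with the pseudocount and 0 after median centring, so that list rests on the scaling.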

How the data were processed

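The authors' deposited table holds log2 values of array signal per probe set. Their range, -15.86 to 16.36, is what identifies the log2 scale. The submitters' processing notes name affy without a version. Background correction, normalization and build: not given in the sources used here. Probe sets were named through the platform annotation and checked by gene identifier against RefSeq (GRCm38.p6), which changed 0 symbols. Each gene was represented by its brightest probe set, without a filter on dim ones. Differences were fitted with limma 3.58.1 in R 4.3.3 (lmFit, eBayes, two-sided, no covariate) over all 22180 genes, with Benjamini-Hochberg adjustment and a threshold of 0.05. SE and 95% intervals are moderated. The fit was run on simulated data to check for bias in the fitted changes. Its power to call small changes is not given here. The number of arrays limits the precision. Permutation tests were exact (Python 3.11.15, scipy 1.17.1). The 8 members, the gene lists, the lists of cell type markers and the tests were chosen with earlier results of these data known. Named are the 8 members, the genes with the smallest p in each list (up to 4) and all called members of lists with at most 6, neighbours of Ets1, Ets2 and Gabpa, and the 5 genes most like Ets1 and Ets2. Etv5 was named after its values were seen. Alternatives were other normalizations, probe set rules, a dim filter, a pseudocount of 16, other variance models, a replicate block and leaving out each array.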

Additional observations from a re-analysis of the deposited data

How the results depend on the processing

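The fall of Ets2 kept its direction and its call in all 17 alternatives run, and each of the other 7 members stayed without a call in each alternative that tested it. Erg was not tested where genes below the median signal were left out. The number of called members was 1 throughout. Some alternatives, such as the probe set rules and the dim filter, left the values of Ets2 as they were. Quantile normalization together with the pseudocount, and the test of all probe sets, were chosen after seeing the data. The number of genes called, 413 on the deposited values, was 798 with quantile normalization, 745 with median centring, 777 with cyclic loess, 907 with a pseudocount of 16, 1172 with an intensity trend and robust prior, 1019 with array weights and 1350 with quantile normalization and the pseudocount. Leaving out 1 array gave 190 to 379: 190 without Ets1-/- replicate 2, 264 without Ets1-/- replicate 3, and 262, 261 and 247 without wild-type replicates 1, 2 and 3. Of the called genes 69.5% were higher, against 56.6% among genes above the median signal, 53.4% with the pseudocount, 52.7% with the intensity trend, 55.9% with quantile normalization and the pseudocount, and 80.1% with the replicate block; the causes were not tested. Small changes turned sign. After median centring Ets1 was at 0.11, Elf1 at 0.16, Cd8a at 0.12, Cd8b1 at 0.18 and Atp5j at 0.20. Cd8b1 and Atp5j were at 0.052 and 0.00897 with quantile normalization, and at 0.052 and 0.0085 with the pseudocount added. With array weights Cd8b1, Atp5j and Map2k1 were at 0.00127, 0.064 and 0.031, and with cyclic loess Atp5j and Mylk at 0.066 and 0.032. Leaving out 1 array moved Ets1 between -0.19 and 0.049, Cd8b1 between -0.10 and 0.018, Atp5j between -0.065 and 0.055, Map2k1 between -0.57 and 0.25, Ppbp between -0.87 and 0.014 and Pdgfra between -0.74 and 0.0018. Whether the replicate numbers pair the samples is not known. Deviations of same-numbered arrays correlated at -0.09, -0.08 and -0.16, and those of other pairs at -0.03 to 0.13. With 3 arrays in each group such values cannot exclude a pairing. With the replicate block 311 genes were called, and Ets2 had an adjusted p of 0.0278. Low signals, as for Erg, limit what the ratios can show.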

Other observations

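Other cells that a bead selection on CD8 and CD4 could hold were read through their markers. Of 9 measured markers of mature single-positive T cells, 5 rose and 0 fell, and their summed linear signal was 1498 to 1935 in Ets1-/- and 643 to 822 in wild type. Klf2, S1pr1, Ms4a4b, Gimap3 and Itgb7 rose by 3.60, 3.54, 2.94, 3.07 and 1.90. Gimap3 lost its call in 4 of 6 fits that left out 1 array, namely without Ets1-/- replicate 1, 2 or 3 and without wild-type replicate 2 (highest adjusted p 0.107). Itgb7 lost it in 5, keeping it without wild-type replicate 2 (up to 0.134). Of 8 measured double-positive markers, 1 rose (Ptcra) and 2 fell, Tdrd5 by 2.55 and Plxnd1 by 2.78. Rag2 and Dntt had changes of -0.29 and -0.46. Both lists were chosen with earlier results of these data known, so their counts are no independent support.

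Of 8 natural killer markers, limma called 0 (3 at an unadjusted p under 0.05, against 13.2% of all genes). Of the 8 changes 4 were above 0 and 4 below, with a median of -0.06. The summed signal of the list was 399 to 674 in Ets1-/- and 210 to 355 in wild type. Gzma, which holds much of that sum, had overlapping groups (7.84 to 9.01 in Ets1-/- and 7.06 to 7.91 in wild type). Klrd1, Il2rb, Prf1 and Gzma had changes of 1.24, 4.08, -0.56 and 0.81. Il2rb had 6.53, 6.47 and 6.45 in Ets1-/- and 2.95, 4.79 and -0.55 in wild type, and its change was 2.61 without wild-type replicate 3 and 2.03 with a pseudocount of 16. Klrd1 was at 0.60 with the pseudocount and was called in 7 of 16 alternatives. Of 8 fibroblast markers, limma called 0 (0 at an unadjusted p under 0.05), with sums of 44.7 to 87.4 in Ets1-/- and 81.3 to 93.2 in wild type; Col1a1, Fstl1, Pdgfrb and Pdgfra had changes of -0.49, -0.52, -0.46 and -0.48. Of 8 measured thymic epithelial markers, limma called 0 (1 at an unadjusted p under 0.05). The sums were 94.4 to 233 in Ets1-/- and 148 to 161 in wild type. Cldn3, Foxn1, Dll4 and Krt18 had changes of -1.12, -0.46, -0.53 and 1.10. Cldn3 was at -0.34 with the pseudocount. Krt18 had 3.67, 6.70 and 4.44 in Ets1-/-, and its change was 0.22 in the lowest of the alternatives.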
